A study of Neurospora crassa with 18 samples.

Results

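The mRNA levels of 6 genes that serve the elongation step of translation or charge tRNAs were followed in the filamentous fungus Neurospora crassa, across all 18 mRNA-seq libraries of the series. The 6 genes were chosen by their locus tags for their roles in translation, out of 9730 genes with a value, by a rule that uses no measured level, although earlier results of these data were known when they were chosen. Of these genes, 3 encode elongation factors: tef-1 (NCU02003, eEF1A), cot-3 (NCU07700, eEF2) and NCU07922 (eEF3). The other 3 encode aminoacyl-tRNA synthetases: cyt-18 (NCU03030), cyt-20 (NCU01965) and leu-6 (NCU09463). The reference table gave the symbols for 5 of these locus tags and no symbol for NCU07922, whose identity as eEF3 rests on the selection alone. Each of the 6 genes had 1 transcript and a value in every library.

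The libraries came from mycelia grown under constant light at room temperature, and they formed 7 groups. The wild-type strain FGSC4200 (WT) was sampled in 2% glucose medium (n = 3), in this medium after 8 h of 5 mM 3-AT (n = 3), and in medium with 0.1% glucose and 0.17% arginine (n = 2). The cpc-1 deletion strain (cpc-1KO) was sampled in the same media, with n = 2, 3 and 2. A cpc-1KO strain that also carried a tagged cpc-1(WT) open reading frame at the csr-1 locus, driven by the ccg-1 promoter with the ccg-1 5′ untranslated region in place of that of cpc-1 (cpc-1KO+cpc-1WT), was sampled with 3-AT only (n = 3). The low glucose medium alone held arginine, so low glucose and arginine cannot be told apart. 3-AT (3-aminotriazole) inhibits an enzyme of histidine biosynthesis and starves the cells of this amino acid. CPC-1 is the transcription factor of cross-pathway control, the counterpart of GCN4 in budding yeast, which raises the transcription of amino acid biosynthesis genes under starvation. Nothing in the labels says that replicate libraries came from separate cultures, so the p-values measure the spread between these libraries, which may be technical.

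During elongation, eEF1A carries each charged tRNA to the ribosome and eEF2 moves the ribosome along by 1 codon. eEF3 is an ATPase found in fungi that helps the spent tRNA to leave the ribosome. The charged tRNAs are made by the aminoacyl-tRNA synthetases, each of which joins 1 amino acid to its tRNAs. In Neurospora, leu-6 encodes the leucyl-tRNA synthetase of the cytosol, and leu-5 that of the mitochondrion. cyt-20 encodes the valyl-tRNA synthetase, which serves both compartments. cyt-18 encodes the mitochondrial tyrosyl-tRNA synthetase, which also acts in the splicing of mitochondrial group I introns. Genes of amino acid biosynthesis are the classical targets of cross-pathway control.

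Values are RPKM (read numbers scaled to the transcript's length and the library's total) as deposited, with no read counts, so sequencing depth is unknown. The sum of RPKM over genes ranged from 258726 to 546387, and the typical gene shifted with the library. The median log2 difference of genes above 10 RPKM was −0.37 between WT with and without 3-AT and 0.52 between cpc-1KO and WT in 2% glucose. Differences are therefore as deposited unless said otherwise, and many are also given after median-ratio scaling. This scaling brings the typical gene of the libraries to the same level. The groups of 2 libraries also stood apart from the groups of 3. Their sums were between 515150 and 546387, and the first percentile of their values above 0 was between 0.096 and 0.291 RPKM, against 0.046 to 0.076 RPKM in the groups of 3. No label names a batch, and what sets these groups apart cannot be told apart from the condition in comparisons between a group of 2 and a group of 3. The deleted gene followed the labels, since cpc-1 was at 2.03 to 5.11 RPKM in the cpc-1KO libraries, 418 to 1167 RPKM in WT and 67.2 to 78.9 RPKM in cpc-1KO+cpc-1WT. Of 5 conidiation markers (con-6, con-8, con-10, con-13 and eas), con-6 was listed at 0 in every library from 2% glucose medium. Their summed level was 2295 to 2342 RPKM in WT with 3-AT, where eas made up nearly all of it, and 758 to 797 RPKM in cpc-1KO+cpc-1WT. It was 28.0 to 557 RPKM in WT without 3-AT, where eas was at 532 and 526 RPKM in 2 libraries and listed at 0 in the third. It was 412 to 413 RPKM in WT and 86.1 to 86.6 RPKM in cpc-1KO in 0.1% glucose, 141 to 163 RPKM in cpc-1KO in 2% glucose, and 37.6 to 103 RPKM in cpc-1KO with 3-AT, where eas was listed at 0 in the first library and at 66.7 and 59.1 RPKM in the others. Their part in the results was not tested, and in these bulk libraries fewer cells of a type and less RNA per cell cannot be told apart.

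tef-1 was among the most abundant mRNAs in each group, at rank 1 to 8 of 9730 genes on the RPKM scale, which accounts for transcript length. In WT, it was at 4269, 4370.5 and 4344 RPKM in 2% glucose, 3613, 3875 and 4008 RPKM with 3-AT, and 4885 and 4974 RPKM in 0.1% glucose. In cpc-1KO, it was at 8342 and 8396 RPKM in 2% glucose, 5360.0, 5463 and 5264 RPKM with 3-AT, and 8628 and 8753 RPKM in 0.1% glucose. The cpc-1KO+cpc-1WT libraries held 7185, 7143 and 7307 RPKM. Every WT library was thus below every library of the other strains, and in the order of the 7 group means no neighbours overlapped. After scaling, the means spanned 1.74-fold, from 3815 in WT in 0.1% glucose to 6634 in cpc-1KO in 0.1% glucose, and 2 pairs of neighbours overlapped, among them cpc-1KO and WT with 3-AT.

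cot-3, which encodes the factor that drives translocation, was at rank 14 to 59. Its libraries were at 959, 947 and 981 RPKM in WT in 2% glucose, 816, 893 and 899.9 RPKM in WT with 3-AT, and 1040.4 and 1049 RPKM in WT in 0.1% glucose. In cpc-1KO, they were at 1858 and 1904 RPKM in 2% glucose, 1232, 1299 and 1208 RPKM with 3-AT, and 1831 and 1848 RPKM in 0.1% glucose. In cpc-1KO+cpc-1WT, they were at 1938, 2001 and 1917 RPKM. The spread within a group was small, with a highest library at most 1.10 times the lowest. Within a library, tef-1 stood in a narrow ratio to cot-3. The mean ratio was 4.30 to 4.72 in the 6 groups of WT and cpc-1KO and 3.70 ± 0.12 (SD, n = 3) in cpc-1KO+cpc-1WT, whose 3 libraries (3.57 to 3.81) were below the other 15.

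NCU07922, the eEF3 gene, had the widest range of group means among the 6 genes. It was at 225, 218 and 224 RPKM in WT in 2% glucose and at 206, 228 and 232 RPKM with 3-AT, and it was at 40.3 and 54.1 RPKM in WT in 0.1% glucose. In cpc-1KO, it was at 610.2 and 621 RPKM in 2% glucose, 489, 505 and 460.2 RPKM with 3-AT, and 570.1 and 564 RPKM in 0.1% glucose. In cpc-1KO+cpc-1WT, it was at 500.1, 527 and 497 RPKM. The low glucose WT libraries were below all others, and the group means spanned 13.04-fold. In rank, NCU07922 went from 116 to 267 in the other 6 groups to 1805 in WT in 0.1% glucose. In the order of the means, WT with and without 3-AT overlapped, as did cpc-1KO and cpc-1KO+cpc-1WT with 3-AT.

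cyt-18 was the least abundant of the 6 mRNAs in every group. It was at 7.35, 9.74 and 8.99 RPKM in WT in 2% glucose, 6.03, 7.39 and 7.64 RPKM with 3-AT, and 5.21 and 4.91 RPKM in 0.1% glucose. In cpc-1KO, it was at 19.3 and 21.7 RPKM in 2% glucose, 12.9985, 13.4 and 14.2 RPKM with 3-AT, and 17.1 and 16.5 RPKM in 0.1% glucose, and the cpc-1KO+cpc-1WT libraries held 14.1, 13.7 and 14.5 RPKM. As deposited, all WT libraries were below all libraries of the other strains, as for the elongation factors. After scaling, this still held for cyt-18 and NCU07922, but tef-1 and cot-3 overlapped between WT and cpc-1KO with 3-AT. The share of all genes that separate in this way was not counted. The median gene above 10 RPKM was itself higher in cpc-1KO than in WT as deposited, by 0.52 in 2% glucose and 0.49 with 3-AT on the log2 scale.

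cyt-20 had its highest level in a different group. WT with 3-AT held 181, 197 and 202 RPKM, and no other library passed 108 RPKM. It was at 89.9, 84.9 and 91.3 RPKM in WT in 2% glucose and at 66.1 and 65.6 RPKM in WT in 0.1% glucose. In cpc-1KO, it was at 87.6 and 89.3 RPKM in 2% glucose, 56.3, 57.9 and 53.1 RPKM with 3-AT, and 101 and 108 RPKM in 0.1% glucose. The cpc-1KO+cpc-1WT libraries held 91.5, 98.7 and 93.1 RPKM and were just above WT without 3-AT as deposited, but below it after scaling (means of 85.9 and 101). As deposited, the lowest group was cpc-1KO with 3-AT and the highest WT with 3-AT, 3.47-fold apart. After scaling, the lowest was WT in 0.1% glucose, and the span was 5.67-fold.

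leu-6 was highest in WT with 3-AT, at 118, 128 and 133 RPKM, followed by cpc-1KO+cpc-1WT at 111, 109.6 and 113 RPKM. In cpc-1KO, it was at 51.1, 53.8 and 47.1 RPKM with 3-AT and at 99.2 and 95.5 RPKM in 0.1% glucose. Its replicates disagreed in the other groups, with 54.2, 41.8 and 69.8 RPKM in WT in 2% glucose, 35.8 and 8.95 RPKM in WT in 0.1% glucose, and 21.1 and 83.7 RPKM in cpc-1KO in 2% glucose. The higher of these libraries was 4.004 and 3.97 times the lower in the last 2 groups. A ratio as large was found in 1.49% and 1.16% of the genes whose group mean reached 20 RPKM in these groups. For the other 5 genes, the highest library was at most 1.34 times the lowest in every group. The differences of leu-6 that involve these groups therefore rest on few libraries.

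**Figure D1:**
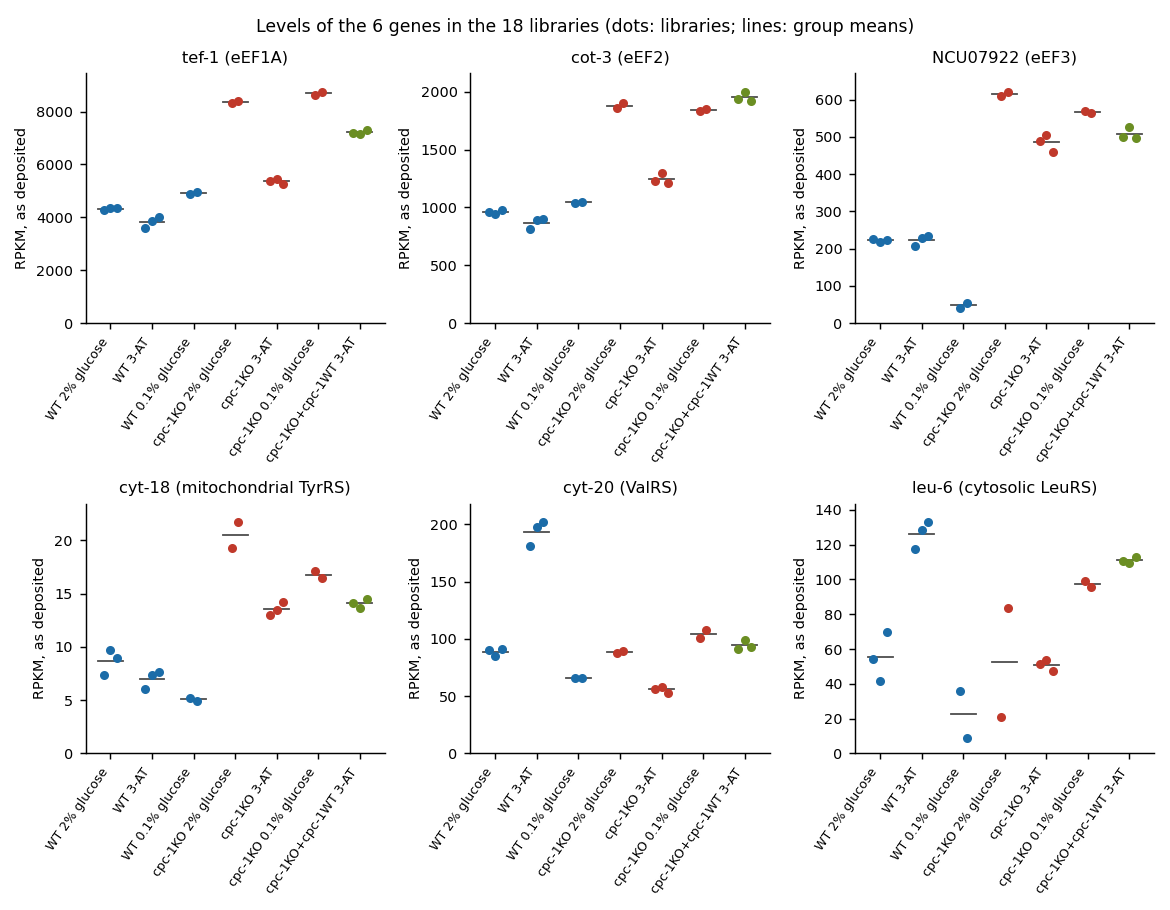
RPKM as deposited (vertical axis, from 0, a scale of its own for each gene) of the 6 genes in the 7 groups (horizontal axis), with 1 dot per library and a line at the group mean. tef-1, cot-3, NCU07922 and cyt-18 were lower in the WT libraries (blue) than in the cpc-1KO (red) and cpc-1KO+cpc-1WT (green) libraries as deposited, though tef-1 and cot-3 overlapped between WT and cpc-1KO with 3-AT after scaling, whereas cyt-20 and leu-6 were highest in WT with 3-AT, at means of 194 and 126 RPKM.

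With 3-AT in WT, cyt-20 rose to 2.18 times its level without 3-AT, and the elongation factors moved little. The log2 difference of cyt-20 was 1.12 (SE 0.06, adjusted p = 5.9e-08) and 1.49 after scaling, larger than that of 97.4% of the genes above 10 RPKM. leu-6 was 2.28 times as high as without 3-AT, with no overlap between the groups. Its log2 difference of 1.21 (SE 0.51) missed the threshold as deposited (adjusted p = 0.081) and passed it after scaling (1.58, adjusted p = 0.027). The SE draws on all groups of the fit, including those where the replicates of leu-6 disagreed. In a limma fit of the groups compared alone, the SE was 0.19 and the adjusted p was 0.0039. tef-1 was at −0.18 (SE 0.04, adjusted p = 0.0076) as deposited and at 0.20 (adjusted p = 0.0012) after scaling. cot-3 likewise went from −0.15 (adjusted p = 0.031) to 0.23 (adjusted p = 4.1e-04), so the sign of both depends on the scale of the libraries. As deposited, cot-3 also missed the threshold without any 1 of the 3 libraries without 3-AT or the first with it (adjusted p from 0.053 to 0.11). NCU07922 was at −0.00 (adjusted p = 1.0) as deposited and 0.38 (adjusted p = 0.0058) after scaling. For cyt-18, the values were −0.27 (adjusted p = 0.055) and 0.07 (adjusted p = 0.68), and it passed without the first library in 2% glucose (−0.37, adjusted p = 0.0099) or the third with 3-AT (−0.33, adjusted p = 0.043). In all, 3 of the 6 genes passed the threshold as deposited, against 44.3% of the 9013 genes tested. After scaling, 5 passed, all higher, against 21.8% of genes higher. The adjusted p-values are from limma with Benjamini-Hochberg adjustment over all genes tested, with a threshold of 0.05. The exact permutation test of a single gene cannot go below p = 0.10 with 3 against 3 libraries, 0.20 with 3 against 2 and 0.333 with 2 against 2.

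With 3-AT in cpc-1KO, cyt-20 was lower, not higher. It went from 88.4 ± 1.21 (SD, n = 2) to 55.8 ± 2.48 RPKM (SD, n = 3), a log2 difference of −0.66 (SE 0.06, adjusted p = 9.6e-06) as deposited and −0.17 (adjusted p = 0.022) after scaling, when the median of genes above 10 RPKM was −0.51 as deposited. tef-1 was lower by a log2 difference of −0.64 (adjusted p = 2.0e-06) and by −0.15 (adjusted p = 0.018) after scaling. cot-3 differed by −0.59 (adjusted p = 6.6e-06) as deposited and by −0.10 (adjusted p = 0.082) after scaling. NCU07922 differed by −0.34 (adjusted p = 0.017) as deposited and by 0.15 (adjusted p = 0.32) after scaling, with adjusted p from 0.056 to 0.08 without the first or second library without 3-AT or the third with it, and cyt-18 by −0.56 (adjusted p = 0.0020) and −0.10 (adjusted p = 0.59). leu-6 was at 0.26 (SE 0.57, adjusted p = 0.77), and without the first or the second cpc-1KO library in 2% glucose at −0.71 or 1.22. As deposited, 5 of the 6 passed, against 48.1% of all genes, and 2 passed after scaling, against 30.7%. The groups compared differ in their number of libraries, so the same limit applies.

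The response to 3-AT differed between the strains for 3 of the 6 genes, against 35.1% of all genes, by the interaction term of the fit (the change in cpc-1KO minus that in WT). For cyt-20, the difference of the changes was −1.77 (SE 0.08, adjusted p = 7.8e-08) as deposited and −1.67 (adjusted p = 1.5e-08) after scaling. For tef-1 and cot-3, it was −0.47 (adjusted p = 3.1e-04) and −0.45 (adjusted p = 7.5e-04), and −0.35 and −0.33 after scaling. These 2 elongation factors thus passed the test of the difference at about the same size. NCU07922 at −0.34 (adjusted p = 0.082), cyt-18 at −0.29 (adjusted p = 0.18) and leu-6 at −0.95 (SE 0.76, adjusted p = 0.39) did not pass, though NCU07922 did in a fit of the groups compared alone (adjusted p = 0.013). The contrast includes the cpc-1KO group of 2 libraries, so this limit holds for it too.

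**Figure D2:**
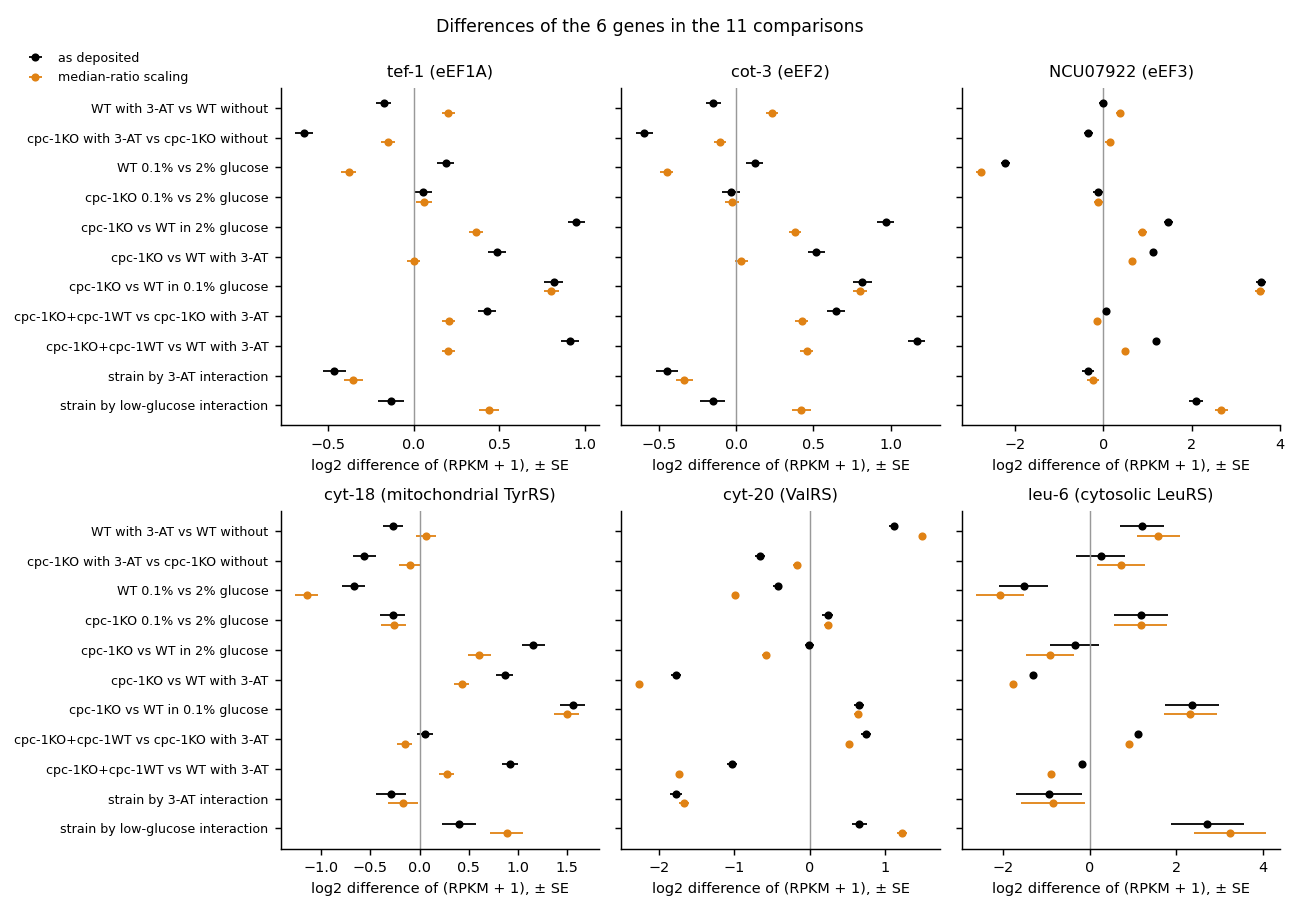
Log2 differences of RPKM + 1 (horizontal axis, a scale of its own for each gene, bars of ± 1 SE from limma) of the 6 genes in the 11 comparisons (vertical axis), as deposited in black and after median-ratio scaling in orange. For cyt-20, WT with 3-AT against WT without is at 1.12 and cpc-1KO against WT with 3-AT at −1.78, whereas for tef-1 and cot-3 the first of these comparisons changes sign with the scaling.

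Among the cultures with 3-AT, each strain had 3 libraries, and both synthetases named above were lower without cpc-1. cyt-20 in cpc-1KO was 0.288 times its WT level, a log2 difference of −1.78 (SE 0.06, adjusted p = 2.2e-07) and of −2.26 (adjusted p = 1.0e-08) after scaling. leu-6 was 0.401 times its WT level, a difference of −1.30 (SE 0.07, adjusted p = 1.7e-06) and of −1.78 after scaling, and both genes were in the lowest 5.98% of differences of genes above 10 RPKM. The elongation factor NCU07922 was higher in cpc-1KO by 1.12 (adjusted p = 2.8e-06) and by 0.64 (adjusted p = 1.3e-05) after scaling. cyt-18 was higher by 0.87 (adjusted p = 5.0e-05) and by 0.43 (adjusted p = 0.0019) after scaling. tef-1 was higher by 0.49 (adjusted p = 8.8e-05) as deposited and cot-3 by 0.52 (adjusted p = 1.0e-04), but the median of genes above 10 RPKM was higher by 0.49 as well, and after scaling they were at −0.00 (adjusted p = 0.99) and 0.03 (adjusted p = 0.55). As deposited, 6 of the 6 passed, against 60.9% of the 8688 genes tested. After scaling, 4 passed, against 54.1%.

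In cpc-1KO+cpc-1WT with 3-AT, both cyt-20 and leu-6 were above cpc-1KO, to unequal extents relative to WT. cyt-20 was higher than in cpc-1KO by 0.75 (SE 0.06, adjusted p = 7.6e-05) and by 0.53 (adjusted p = 1.2e-04) after scaling. It stayed below WT, at −1.03 (adjusted p = 3.7e-06) as deposited and −1.73 after scaling. leu-6 was 2.19 times its cpc-1KO level, a log2 difference of 1.12 (SE 0.07, adjusted p = 1.3e-05) and of 0.90 (adjusted p = 8.2e-06) after scaling. Against WT, leu-6 was at −0.18 (adjusted p = 0.052) as deposited and −0.88 (adjusted p = 3.3e-06) after scaling, and it passed as deposited without the first WT library (−0.23, adjusted p = 0.023). cot-3 was higher than in cpc-1KO by 0.65 (adjusted p = 9.8e-05) and by 0.42 (adjusted p = 2.1e-04) after scaling, and tef-1 by 0.43 (adjusted p = 5.5e-04) and 0.20 (adjusted p = 0.0060). NCU07922 was at 0.07 (adjusted p = 0.49) against cpc-1KO as deposited and −0.15 (adjusted p = 0.045) after scaling, and cyt-18 was at 0.05 (adjusted p = 0.69) and −0.15 (adjusted p = 0.19). Of the 6 genes, 4 passed against cpc-1KO, compared with 33.9% of all genes, and 5 passed against WT, compared with 62.8%. Against WT, tef-1 was at 0.91, cot-3 at 1.17, NCU07922 at 1.19 and cyt-18 at 0.92 as deposited, when the median of genes above 10 RPKM was at 0.73, and at 0.20, 0.46, 0.48 and 0.28 after scaling, with adjusted p of at most 0.018. These comparisons share their libraries with each other and with that of cpc-1KO and WT. cpc-1 itself was at 71.6 ± 6.34 RPKM in these libraries (SD, n = 3), against 1141 ± 42.3 RPKM in WT with 3-AT (SD, n = 3). The transgene mRNA has another 5′ untranslated region, so these mRNA levels may not cover the same sequence, and they do not give the level of the protein.

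In WT in 0.1% glucose, NCU07922 and the 3 synthetase genes among the 6 were lower than in 2% glucose. leu-5, a synthetase gene outside the 6, was higher, at 16.7 and 21.3 RPKM against 9.44 to 12.5 RPKM. Its log2 difference was 0.71 and passed as deposited, but it was 0.18 and did not pass after scaling. NCU07922 was 0.213 times as high, a log2 difference of −2.22 (SE 0.10, adjusted p = 1.1e-08) and of −2.78 (adjusted p = 1.4e-09) after scaling, and 2.52% of genes above 10 RPKM had a lower value. cyt-18 was at −0.67 (SE 0.12, adjusted p = 4.2e-04) and cyt-20 at −0.42 (SE 0.06, adjusted p = 1.5e-04), or −1.15 and −0.98 after scaling. leu-6 was at −1.53 (SE 0.57, adjusted p = 0.039), but at −0.58 (adjusted p = 0.42) without the second library in 0.1% glucose, and it also missed the threshold without the first or the third library in 2% glucose (adjusted p = 0.074 and 0.10). tef-1 was at 0.19 (adjusted p = 0.0073) as deposited and at −0.38 (adjusted p = 1.4e-05) after scaling, and cot-3 went from 0.12 (adjusted p = 0.085) to −0.45 (adjusted p = 3.1e-06). As deposited, 5 of the 6 passed, against 59.3% of all genes, and after scaling 6, all lower, against 26.5% of genes lower. The median of genes above 10 RPKM was 0.50 as deposited, and the groups differ in their number of libraries. Conidiation markers moved with this change of medium: con-8 was at 229 and 237 RPKM in WT in 0.1% glucose and at 24.0 to 26.1 RPKM in 2% glucose, and con-6 at 72.2 and 57.7 RPKM against libraries listed at 0. The mean of con-10 was 31.2 times as high, and con-13 was at a mean of 2.54 RPKM against 0.305 RPKM. eas was lower, at 53.3 and 56.6 RPKM, than in the first and second libraries in 2% glucose, at 532 and 526 RPKM. It was listed at 0 in the third library in 2% glucose, and eas did not pass (adjusted p = 0.97). Their part in the changes of the 6 genes was not tested.

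In cpc-1KO, the same change of medium came with small differences of the members other than leu-6. The only member that passed was cyt-20, higher by 0.24 (SE 0.07, adjusted p = 0.025) as deposited and after scaling (adjusted p = 0.0061), against 28.2% of all genes. It missed the threshold when the first or the second library in 2% glucose or the second in 0.1% glucose was left out (adjusted p from 0.066 to 0.14) and in a fit of these groups alone (adjusted p = 0.11). tef-1 was at 0.05, cot-3 at −0.03, NCU07922 at −0.12 and cyt-18 at −0.27, with adjusted p between 0.14 and 0.79. leu-6 was at 1.18 (SE 0.62, adjusted p = 0.19), and without the second cpc-1KO library in 2% glucose at 2.15 (adjusted p = 0.026). By the test of the difference, the response to the medium differed between the strains for NCU07922, at 2.11 (SE 0.15, adjusted p = 9.3e-07) as deposited and 2.67 after scaling, and for cyt-20, at 0.66 (SE 0.09, adjusted p = 1.5e-04) and 1.23. For leu-6, the difference was 2.71 (SE 0.84, adjusted p = 0.020), and it missed the threshold without the first cpc-1KO library in 2% glucose (1.74, adjusted p = 0.077), the second WT library in 0.1% glucose (1.77, adjusted p = 0.076) or the first cpc-1KO library in 0.1% glucose (2.68, adjusted p = 0.051). cyt-18 was at 0.40 (adjusted p = 0.077) as deposited, 0.88 (adjusted p = 0.0014) after scaling and 0.50 (adjusted p = 0.018) without the first WT library in 2% glucose. tef-1 at −0.13 (adjusted p = 0.16) and cot-3 at −0.15 (adjusted p = 0.15) did not pass as deposited, and both were above 0 after scaling, at 0.44 (adjusted p = 1.5e-04) and 0.42 (adjusted p = 1.9e-04). In all, 3 of the 6 passed as deposited, against 50.7% of genes, and 6 after scaling, all higher, against 19.7% of genes higher. The median of genes above 10 RPKM was −0.52 as deposited and 0.02 after scaling. This contrast includes the WT group of 3 libraries in 2% glucose, so the limit on comparing groups of 2 and 3 holds for it too.

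In 0.1% glucose, both strains had 2 libraries, and all 6 genes were higher in cpc-1KO than in WT. NCU07922 was 12.01 times as high, a log2 difference of 3.57 (SE 0.11, adjusted p = 9.4e-10), larger than that of 99.0% of genes above 10 RPKM. cyt-18 was 3.32 times as high (log2 difference 1.55, SE 0.13, adjusted p = 1.6e-06), and cyt-20 1.59 times (0.66, SE 0.07, adjusted p = 1.3e-05). tef-1 and cot-3 were both 1.76 times as high, with log2 differences of 0.82 each (adjusted p = 3.3e-07 and 6.8e-07). leu-6 was 4.35 times as high (2.36, SE 0.62, adjusted p = 0.0085), and at 1.42 (adjusted p = 0.079) without the second WT library. The libraries of these groups had nearly the same scale, with a median of −0.01 over genes above 10 RPKM, and scaling changed the log2 differences little, to 3.55 for NCU07922 and 1.49 for cyt-18. As deposited, 6 of the 6 passed, against 49.2% of all genes, and the 6 were higher, against 22.3% of genes higher.

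In 2% glucose without 3-AT, where 2 cpc-1KO libraries were compared with 3 of WT, the elongation factors and cyt-18 were higher in cpc-1KO. NCU07922 was 2.77 times as high, a log2 difference of 1.47 (SE 0.10, adjusted p = 5.9e-07) and of 0.88 (adjusted p = 3.5e-05) after scaling. tef-1 and cot-3 were 1.93 and 1.96 times as high, at 0.95 (adjusted p = 7.1e-08) and 0.97 (adjusted p = 1.2e-07), or 0.36 (adjusted p = 3.8e-05) and 0.38 (adjusted p = 2.5e-05) after scaling. cyt-18 was 2.36 times as high (1.16, adjusted p = 8.2e-06, and 0.61 after scaling). cyt-20 was at −0.00 (adjusted p = 1.0) as deposited and −0.58 (adjusted p = 3.7e-06) after scaling, and leu-6 at −0.35 (SE 0.57, adjusted p = 0.65) and −0.92 (adjusted p = 0.23). As deposited, 4 of the 6 passed, against 54.5% of all genes, and these 4 were higher, against 47.1% of genes higher, and after scaling 5 passed, against 40.2% in either direction.

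Ratios of 2 genes within a library do not depend on its scale, but they move with either gene. NCU07922 stood at 0.231 ± 0.003 of cot-3 in WT in 2% glucose (SD, n = 3), 0.255 ± 0.003 with 3-AT (SD, n = 3) and 0.045 ± 0.009 in 0.1% glucose (SD, n = 2). In cpc-1KO, the ratio was 0.327 ± 0.002 (SD, n = 2), 0.389 ± 0.008 (SD, n = 3) and 0.308 ± 0.004 (SD, n = 2) in the same media. The cpc-1KO+cpc-1WT libraries were at 0.260 ± 0.003 (SD, n = 3), and they overlapped those of WT with 3-AT. Both genes were higher there than in WT with 3-AT as deposited, NCU07922 at 2.29 and cot-3 at 2.24 times the WT level. cyt-20 stood at 0.222 ± 0.002 of cot-3 in WT with 3-AT (SD, n = 3) and between 0.044 and 0.059 in the 10 libraries of cpc-1KO and cpc-1KO+cpc-1WT. In the other WT groups, the ratio was 0.092 ± 0.002 (SD, n = 3) in 2% glucose and 0.063 ± 0.001 (SD, n = 2) in 0.1% glucose. Every WT library was thus above every library of the other strains, but cot-3 also differed between the strains. In 0.1% glucose, cyt-20 itself was 1.59 times as high in cpc-1KO as in WT, and cot-3 was 1.76 times as high. As deposited, cyt-20 was higher in cpc-1KO+cpc-1WT than in cpc-1KO with 3-AT by a log2 difference of 0.75, and cot-3 by 0.65. The ratio of the cytosolic to the mitochondrial leucyl-tRNA synthetase mRNA, leu-6 to leu-5, was 21.5 ± 1.71 in WT with 3-AT (SD, n = 3), 4.88 ± 0.62 in WT without (SD, n = 3), 4.02 ± 0.27 in cpc-1KO with 3-AT (SD, n = 3) and 8.59 ± 0.17 in cpc-1KO+cpc-1WT (SD, n = 3). leu-5, the only other synthetase with a symbol in the reference table, fell with 3-AT in WT, at −0.82 (SE 0.11, adjusted p = 8.2e-05) and −0.50 (adjusted p = 0.0034) after scaling.

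**Figure D3:**
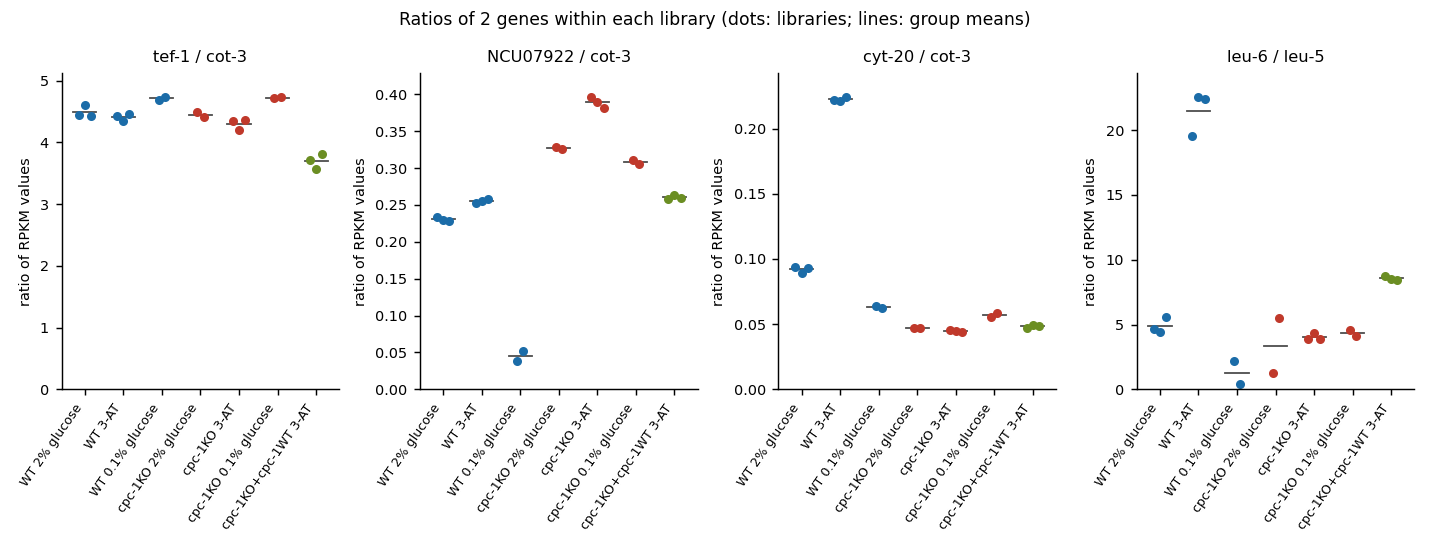
Ratio of the RPKM values of 2 genes within each library (vertical axis, from 0, no unit) in the 7 groups, for tef-1, NCU07922 and cyt-20 over cot-3 and for leu-6 over leu-5, with 1 dot per library and a line at the group mean. The ratio of cyt-20 to cot-3 was 0.222 in WT with 3-AT and at most 0.059 in each library that lacks the native cpc-1, and the ratio of NCU07922 to cot-3 was lowest, at 0.045, in WT in 0.1% glucose.

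Genes of cytosolic ribosomal proteins, which make up the machine that the elongation factors serve, were compared as a list of the 7 genes with a crp symbol. With 3-AT in WT, 6 of the 7 were lower, with a median log2 difference of −1.68 as deposited and −1.30 after scaling, against −0.37 and −0.02 for genes above 10 RPKM, and 3079 of the 9013 genes tested were lower as deposited. The remaining gene, crp-5, was listed at 0 in the first WT library in 2% glucose and at 919 and 958 RPKM in the other 2. Its difference, 1.27 as deposited and 1.70 after scaling, rests on this 0 and is included in the medians of the list. The 0 also widens the spread of crp-5 in every comparison from the fit of 15 libraries. tef-1 and cot-3, at −0.18 and −0.15 in the same comparison, were outside the range of the 6 genes, −1.90 to −1.65. In cpc-1KO with 3-AT, 6 of 7 crp genes were lower, with a median of −0.89, and 5 of 7 after scaling, with a median of −0.40. crp-5 did not pass, though it was at 673, 811 and 679 RPKM with 3-AT and at 1512 and 1514 RPKM without. The median of genes above 10 RPKM was −0.51 and −0.04, 3949 of the 9013 genes tested were lower as deposited, and tef-1 and cot-3 were at −0.64 and −0.59. Between cpc-1KO and WT with 3-AT, 7 of 7 were higher by a median of 1.55 (1.07 after scaling), more than tef-1 and cot-3. The median of genes above 10 RPKM was 0.49 (0.03 after scaling), and 3951 of the 8688 genes tested were higher. In 0.1% glucose, 6 of 7 were higher in cpc-1KO, with a median of 1.20, below NCU07922 at 3.57, and 2010 of the 9013 genes tested were higher. crp-5 again did not pass, though it was at 1585 and 1517 RPKM in cpc-1KO and at 749 and 793 RPKM in WT. In cpc-1KO+cpc-1WT against cpc-1KO, the crp genes lay between 0.08 and 0.21 as deposited and between −0.15 and −0.01 after scaling, below the medians of genes above 10 RPKM, 0.25 and 0.04, whereas tef-1 and cot-3 were at 0.43 and 0.65 as deposited and 0.20 and 0.42 after scaling.

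**Figure D4:**
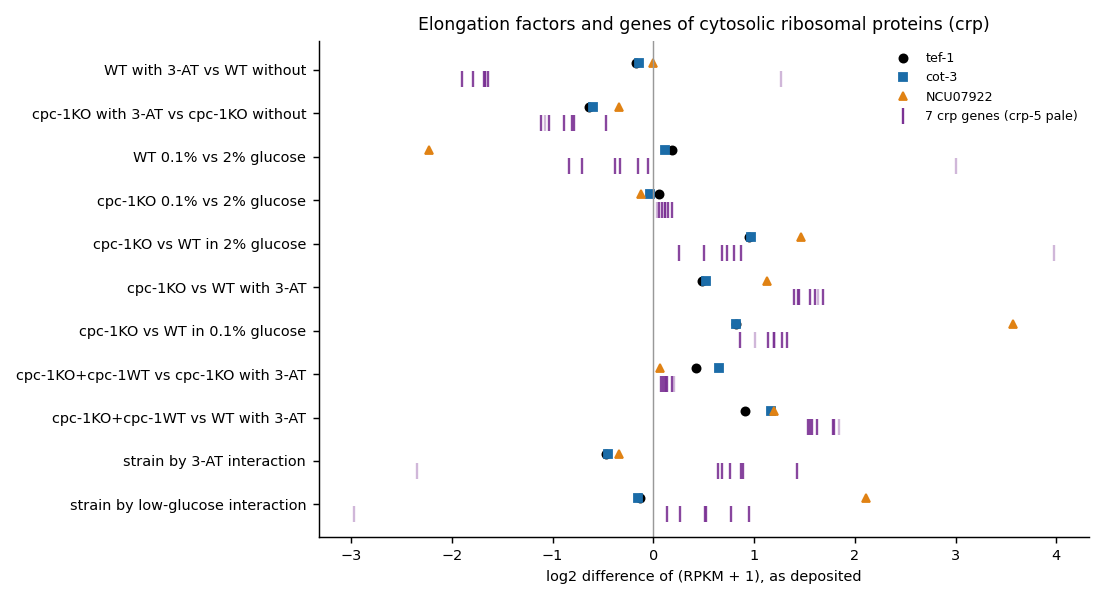
Log2 differences of RPKM + 1 as deposited (horizontal axis) of tef-1, cot-3, NCU07922 and the 7 crp genes (vertical ticks, crp-5 pale) in the 11 comparisons (vertical axis). With 3-AT in WT, 6 crp genes lie near −1.68 and the elongation factors between −0.18 and −0.00, and crp-5 is displaced wherever the WT group in 2% glucose enters, because of its value of 0 in 1 library.

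Across the 18 scaled libraries, Pearson's r between log2 levels was 0.82 to 0.97 among the 3 elongation factors and cyt-18, highest for NCU07922 and cyt-18. It was 0.07 to 0.20 between cyt-20 and these 4 genes, 0.45 to 0.55 between leu-6 and the same 4, and 0.75 between cyt-20 and leu-6. These values describe 7 groups of libraries rather than 18 independent points. Over the 4593 genes whose mean reached 10 RPKM, the 2 genes whose pattern was most like that of a member were leu-4 (r = 0.992) and trp-1 (r = 0.990) for cyt-20, and cyt-19 (r = 0.996) and NCU03117 (r = 0.994) for NCU07922. For cyt-18, they were NCU04620 (r = 0.982) and NCU08951 (r = 0.975). For cot-3, they were NCU04790 (r = 0.973) and NCU00232 (r = 0.945), and the member tef-1 was as close to cot-3 as the latter (r = 0.946). For tef-1, they were pp-2 and NCU01328 (both r = 0.954). For leu-6, the closest were NCU00963 (r = 0.920) and NCU05075 (r = 0.889).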

How the data were processed

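The authors deposited 1 table of RPKM values per library, by annotated transcript, without pooling replicates. The processing notes of the submitters name TopHat2 and Cufflinks, with no version, and the genome build is not given in the sources used here. The labels name TruSeq reagents, whereas the methods of the study name another kit and 2 instruments. The cpc-1KO+cpc-1WT libraries carry the heading GCN4WT in the values, and the label was followed. Of 10792 entries, 7 with a remark were left out, and transcripts were added per gene. Symbols came from an NC12 table, which held 9729 of 9730 genes and has no products, so lists of other genes were formed by symbol. Its coordinates were not used.

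Values were analyzed as log2(RPKM + 1), a scale that understates the change of low genes, with limma 3.58.1 in R 4.3.3. The model had 1 coefficient per group and p-values adjusted by Benjamini-Hochberg across every gene tested (threshold 0.05), with 15 libraries of WT and cpc-1KO for most comparisons and the 9 libraries with 3-AT for comparisons among strains with 3-AT. Genes above 0 in at least 1 of these libraries were tested, 9013 and 8688 of them. The 124 genes without a number in a cpc-1KO+cpc-1WT library did not enter the fit of 9 libraries, which also gave cpc-1KO against WT with 3-AT. The model script was tested on simulated data. The genes named are the 6 members, the 2 genes outside the 6 most like each, cpc-1 and members of the lists. The members and lists were chosen with earlier results of these data known. Alternatives were median-ratio and upper-quartile scaling, a pseudocount of 0.1, a filter of 1 RPKM, other sets of libraries, a replicate block, a trended prior variance, the highest transcript alone and leaving out each library.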

Additional observations from a re-analysis of the deposited data

Results flagged for a closer look

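The response to 3-AT differed between cpc-1KO and WT, by the interaction term of limma with Benjamini-Hochberg adjustment, for 3 of the 6 genes, against 35.1% of all genes. The change in cpc-1KO minus that in WT was −1.77 for cyt-20, −0.47 for tef-1 and −0.45 for cot-3 on the log2 scale as deposited. For cyt-20, all 3 WT libraries with 3-AT were above all 3 without, and all 3 cpc-1KO libraries with 3-AT were below both without. The contrast includes a group of 2 libraries, so the limit on comparing groups of 2 and 3 holds here.

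As deposited, the response to 0.1% glucose with arginine differed between the strains for NCU07922 (2.11), cyt-20 (0.66) and leu-6 (2.71), 3 of the 6, against 50.7% of all genes. Both WT libraries in 0.1% glucose were below the 3 in 2% glucose for each of these genes. After median-ratio scaling, 6 of the 6 passed, all higher, against 19.7% of genes higher. WT in 2% glucose had 3 libraries and the other groups 2, so the limit on comparing groups of 2 and 3 holds here as well. The difference of leu-6 missed the threshold when any of 3 libraries was left out, the second of WT in 0.1% glucose, the first of cpc-1KO in 2% glucose or the first of cpc-1KO in 0.1% glucose, at values from 1.74 to 2.68.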

How the results depend on the processing

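Scaling decided the sign of small differences. After median-ratio scaling, tef-1, cot-3, NCU07922 and cyt-18 in WT with 3-AT were at 0.20, 0.23, 0.38 and 0.066, and after upper-quartile scaling at 0.15, 0.18, 0.32 and 0.0196. NCU07922 in cpc-1KO with 3-AT was at 0.15 and 0.11. tef-1 and cot-3 in WT in 0.1% glucose were at −0.38 and −0.45, and at −0.47 and −0.54. Their strain by low-glucose interactions were at 0.44 and 0.42, and at 0.51 and 0.49. NCU07922 and cyt-18 in cpc-1KO+cpc-1WT against cpc-1KO were at −0.15 and −0.15, and at −0.25 and −0.24. tef-1 in cpc-1KO against WT with 3-AT was at −0.0016 after median-ratio scaling. The number of the 6 genes that passed became 5 under both scalings in WT with 3-AT (3559 and 3570 of all 9013 genes, against 3991), 2 and 3 in cpc-1KO with 3-AT (2770 and 2828 of all genes, against 4335), and 6 under both for the low-glucose interaction (3780 and 3776, against 4574). Under upper-quartile scaling, tef-1 also missed the threshold for cpc-1KO against WT with 3-AT (adjusted p = 0.056) and for cpc-1KO+cpc-1WT against cpc-1KO (adjusted p = 0.087).

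In a fit of the groups compared alone, 0 of the 6 and 1543 of all genes passed between media in cpc-1KO (against 1 and 2538 in the limma fit of 15 libraries), with cyt-20 at an adjusted p of 0.11 and 1 of the 6 at an unadjusted p under 0.05. leu-6 missed the threshold in such fits for WT in 0.1% against 2% glucose (adjusted p = 0.11), for cpc-1KO against WT in 0.1% glucose (adjusted p = 0.099) and for the low-glucose interaction (adjusted p = 0.083), and passed it for 3-AT in WT (adjusted p = 0.0039), as NCU07922 did for the 3-AT interaction (adjusted p = 0.013). In a fit of all 18 libraries, it missed the threshold for cpc-1KO+cpc-1WT against cpc-1KO (adjusted p = 0.09). With 1 library left out at a time, the number of the 6 that passed was 0 to 1 between media in cpc-1KO. leu-6 ranged from −0.71 to 1.22 for 3-AT in cpc-1KO, from −1.32 to 0.62 for cpc-1KO against WT in 2% glucose, and from −1.92 to 0.0185 for the 3-AT interaction. NCU07922 for 3-AT in WT ranged from −0.036 to 0.0504, and cyt-20 for cpc-1KO against WT in 2% glucose from −0.0343 to 0.0175.

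Libraries with the same number did not deviate together (correlations from −0.05 to 0.08), so they share only a number. With a replicate block, cyt-20 for cpc-1KO against WT in 2% glucose was at 0.0027, 4 of the 6 and 3874 of all genes passed in WT with 3-AT, and leu-6 in WT in 0.1% glucose lost the threshold (adjusted p = 0.085). A pseudocount of 0.1 changed no call of the 6 genes. The highest transcript alone changed none either, but each of the 6 has 1 transcript, so their values were the same in that fit. The depth is unknown, and the 2-library groups limit the precision.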
